A study of Mus musculus with 15 samples.

Results

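The expression of 10 genes of mast cells, basophils and eosinophils was followed across sorted myeloid progenitors of mice carrying mutant Cebpa alleles. The members were chosen by name, with earlier results of these data known. Each is the single gene symbol of a probe set on the Mouse Gene 1.0 ST array. A gene with several probe sets is represented by its brightest, averaged over the 15 arrays. All 10 members were found, each with 1 probe set, among 19937 genes with 1 symbol. By the cells they are known from, 3 are mast cell genes (Cpa3, Slc18a2 and Csrp3), 3 are shared by mast cells and basophils (Hdc, Ms4a2 and Fcer1a), 1 is a basophil gene (Prss34) and 3 are eosinophil genes (Prg2, Prg3 and Epx).

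The series asked which genes are deregulated in progenitors before leukaemia arises. Each of 5 groups held 3 arrays of cells from female C57BL/6 mice, taken 3 weeks after conditional knockout. The granulocyte-macrophage progenitors (GMPs) were Cebpa fl/p30, Cebpa fl/BRM2 or Cebpa fl/+, all with Mx1Cre. The more immature pre-granulocyte-macrophage progenitors (preGMs) were Cebpa fl/p30 with Mx1Cre or Cebpa +/+, whose label spells the transgene Mx1Ce. In these names fl is a conditional allele that Cre removes, p30 an allele that makes only the short form of the transcription factor C/EBPα, and BRM2 an allele with a mutated basic region. Mx1Cre is known to act after interferon in many cell types besides blood progenitors. The GMP control therefore had 1 normal and 1 floxed allele and the preGM control 2 normal ones. The same 3 animals gave both fl/p30 groups, so that replicates 1, 2 and 3 are the same animals in GMPs and preGMs of this genotype, and the series had 12 animals in all. GMPs were sorted as negative for lineage markers, Sca1, CD150 and CD41 and positive for cKit and FcgRII. PreGMs lacked FcgRII and Endoglin as well.

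Mast cells and basophils store histamine in granules and are set off through the high-affinity IgE receptor, while eosinophils carry toxic basic proteins and a peroxidase. All of these cells descend from marrow progenitors. In mouse progenitors, C/EBPα and the GATA factors are known to steer the choice among them: C/EBPα favours basophils over mast cells, and mast cells keep Gata2.

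Promoter windows were read from RefSeq (GRCm38.p6), each running from 250 bases before a start site to 50 after it. Of the members, 9 matched, with 10 windows, since Csrp3 has a pair of start sites. Prg2 was not matched. A window is shown for a mast cell gene, the basophil gene and an eosinophil gene, so that each lineage contrasted in the results is represented. Each reads 5′ to 3′ on the gene's strand, and capitals mark the letters GATAA, the core of sites bound by GATA factors, and GCAAT, a C/EBP core site, in either orientation (TTATC and ATTGC when reversed). The Cpa3 window is chr3:20242132-20242431 on the minus strand, the Prss34 window chr17:25298144-25298443 on the plus strand and the Prg3 window chr2:84987965-84988264 on the plus strand.
Cpa3: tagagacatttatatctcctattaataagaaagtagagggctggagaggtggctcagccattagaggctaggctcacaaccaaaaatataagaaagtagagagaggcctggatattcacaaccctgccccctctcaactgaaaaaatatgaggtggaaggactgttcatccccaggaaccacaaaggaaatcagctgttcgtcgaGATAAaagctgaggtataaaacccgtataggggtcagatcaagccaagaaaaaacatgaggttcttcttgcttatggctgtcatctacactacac
Prss34: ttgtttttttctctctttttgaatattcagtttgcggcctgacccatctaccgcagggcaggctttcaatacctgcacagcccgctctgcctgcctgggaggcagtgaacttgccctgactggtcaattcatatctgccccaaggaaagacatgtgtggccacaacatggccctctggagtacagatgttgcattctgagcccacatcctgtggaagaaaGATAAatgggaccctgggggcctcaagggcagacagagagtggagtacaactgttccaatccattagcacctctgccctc
Prg3: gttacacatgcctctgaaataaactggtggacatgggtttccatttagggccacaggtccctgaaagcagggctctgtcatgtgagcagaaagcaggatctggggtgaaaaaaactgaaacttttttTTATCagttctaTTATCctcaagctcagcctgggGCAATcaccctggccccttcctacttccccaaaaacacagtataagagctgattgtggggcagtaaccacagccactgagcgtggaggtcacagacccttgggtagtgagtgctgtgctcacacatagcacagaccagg
The Cpa3 window held 1 GATAA, starting at -45 from the start site, and the Prss34 window held 1, at -30. The Prg3 window held 2, at -123 and -111, and 1 GCAAT at -89. Over all members, GATAA was in 6 of the 10 windows (those of Cpa3, Slc18a2, Ms4a2, Fcer1a, Prss34 and Prg3), against 25.4% of all 32851 promoter windows of this length. GCAAT was in 4 of the 10 (both Csrp3 windows, Fcer1a and Prg3), against 26.4%. No GATAA match overlapped a GCAAT match in these windows. Members that were higher and members that were lower in the mutants both held GATAA. A match is a description of these letters and not a bound site, and no match says only that the letters are not in this window.

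Values are log2 expression values. Array medians lay between 6.03 and 6.23, so a group below that is near the background and is given no fold. A probe set's level is set only against the same probe set in other groups. No pair of arrays was identical, and arrays of a group correlated at 0.942 to 0.988 over all probe sets. Spread was unequal: pooled over all genes as a root mean square, the SD within a group was 0.269 in GMP fl/p30, 0.195 in GMP fl/BRM2, 0.319 in GMP fl/+, 0.211 in preGM fl/p30 and 0.165 in preGM +/+. Fcgr3, an Fc receptor gene near the sorted antigen, averaged 9.30, 9.39 and 9.30 in GMP fl/p30, fl/BRM2 and fl/+ and 6.95 and 6.32 in preGM fl/p30 and +/+. Fcgr2b, the FcgRII gene, was less even among the GMPs. Against GMP fl/+ it differed by -1.07 ± 0.30 in GMP fl/p30 (limma, adjusted p = 0.051). In GMP fl/BRM2 it differed by -1.05 ± 0.30 (adjusted p = 0.0903). The Cebpa probe set was above the array medians in every group, but the position of its probes is not known here, so it does not check the genotypes. It rose by 0.69 ± 0.18 in GMP fl/p30 against the fl/+ control (limma, adjusted p = 0.0367). Differences are log2 differences ± standard error from limma, tested with all 15 arrays in 1 fit and adjusted by Benjamini-Hochberg over all genes. "Called" means an adjusted p under 0.05. Nothing in the labels says that animals of a group were littermates or were processed separately, and p-values measure the spread between these samples.

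**Figure D1:**
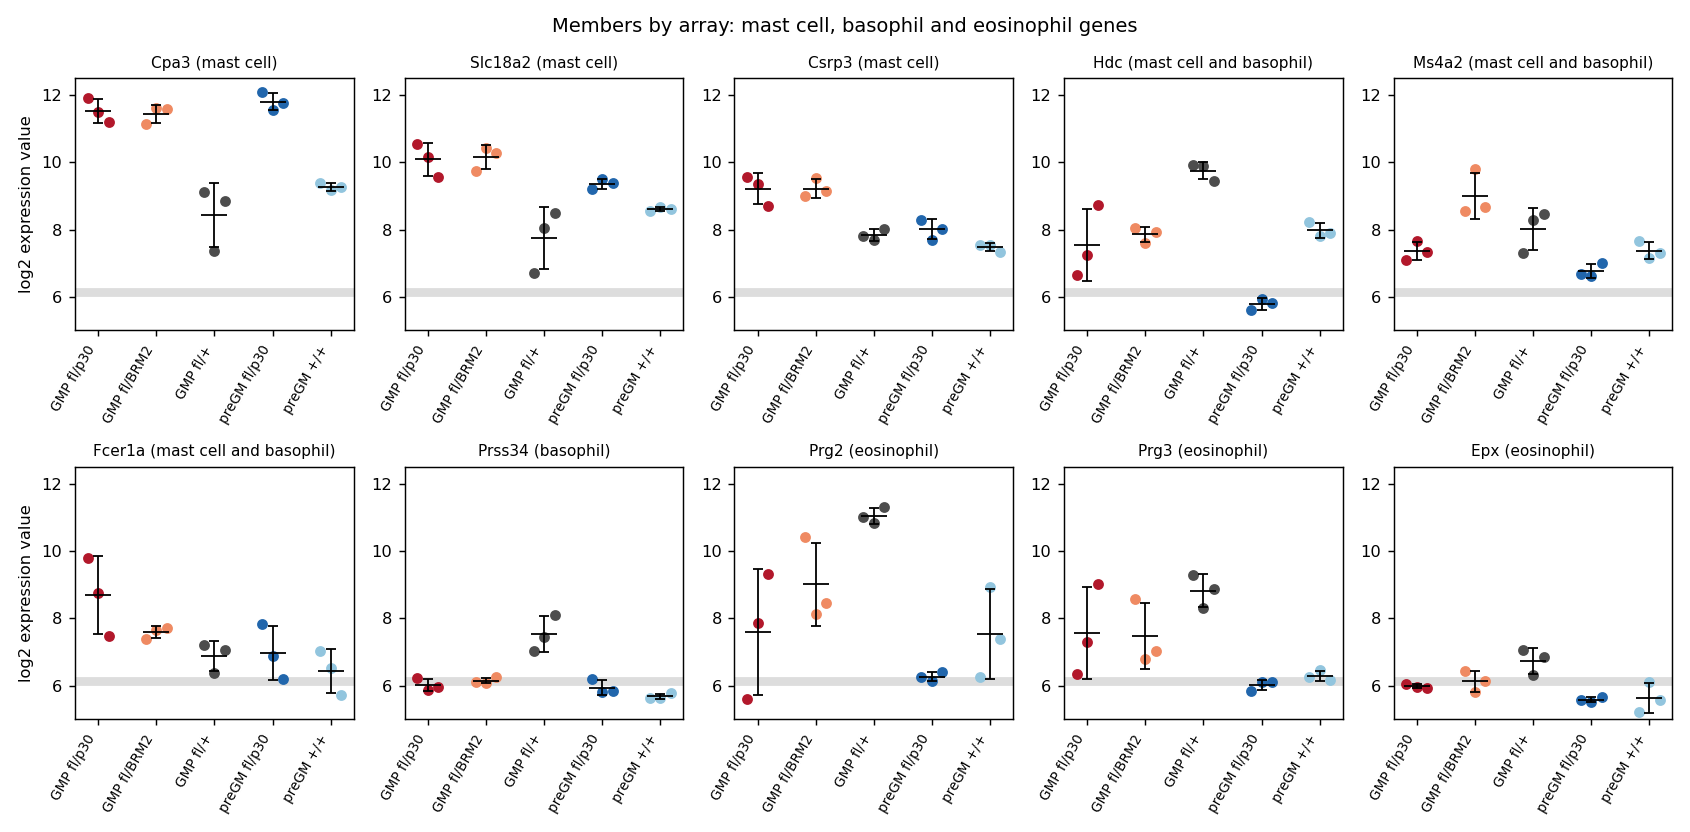
Log2 expression value (y axis) of each member by array, 3 points a group in replicate order, with the group mean and SD as bars. The grey band spans the 15 array medians, 6.03 to 6.23. Cpa3, Slc18a2 and Csrp3 sit higher in both mutant GMP groups than in GMP fl/+, while Hdc, Prss34 and Prg2 sit lower.

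In GMPs, the mast cell genes rose with either mutant allele while the basophil gene and the histamine-synthesis gene fell. Cpa3, Slc18a2 and Csrp3 were higher in both GMP fl/p30 and GMP fl/BRM2 than in GMP fl/+, by 2.6-fold to 8.5-fold. Hdc and Prss34 were lower in both, and Prg2 was lower in GMP fl/p30. Both mutants were set against the same 3 control arrays, so the paired results share that control. Of the 10 members, 6 were called for fl/p30 (3 higher, 3 lower) and 5 for fl/BRM2 (3 higher, 2 lower). Over all genes 6.06% were called for fl/p30 (4.69% higher and 1.37% lower) and 2.53% for fl/BRM2 (1.89% and 0.642%). Since the members were chosen with earlier results known, counts above such shares, here and below, are a description and not a test. In bulk RNA of a sorted population, a larger share of cells of a type and more RNA per cell cannot be told apart.

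Cpa3, which encodes the carboxypeptidase A of mast cell granules, was at 11.91, 11.49 and 11.20 in GMP fl/p30 and at 11.14, 11.62 and 11.58 in GMP fl/BRM2, against 9.13, 7.35 and 8.85 in GMP fl/+. All 6 mutant arrays lay above all 3 control arrays. The difference was 3.09 ± 0.34 for fl/p30 (8.5-fold, adjusted p = 0.000128) and 3.00 ± 0.34 for fl/BRM2 (8.01-fold, adjusted p = 0.000315). Slc18a2 encodes the vesicular transporter that loads histamine and serotonin into granules. It was at 10.54, 10.16 and 9.58 in GMP fl/p30 and at 9.75, 10.43 and 10.27 in GMP fl/BRM2, against 6.71, 8.05 and 8.49 in GMP fl/+. Again no mutant array overlapped the control, whose own arrays were spread over more than 1 log2 unit. Its difference was 2.34 ± 0.35 for fl/p30 (5.07-fold, adjusted p = 0.00129) and 2.40 ± 0.35 for fl/BRM2 (5.26-fold, adjusted p = 0.0022).

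Csrp3, a LIM-domain protein gene best known from muscle and used as a mast cell marker, was at 9.58, 9.37 and 8.71 in GMP fl/p30 and at 8.99, 9.54 and 9.14 in GMP fl/BRM2, against 7.80, 7.69 and 8.03 in GMP fl/+. The groups did not overlap, and the control arrays were close to each other. Its difference was 1.38 ± 0.21 for either mutant (2.6-fold for fl/p30, adjusted p = 0.00165; 2.61-fold for fl/BRM2, adjusted p = 0.00339). For these 3 genes the calls held whichever single array was left out. Fitted on the 6 compared arrays alone, the Cpa3 calls held, those of Slc18a2 ended for both mutants and that of Csrp3 ended for fl/p30 (adjusted p = 0.0575), as did the fl/p30 calls of Hdc, Prss34 and Prg2 and the fl/BRM2 call of Prss34.

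Among the genes shared by mast cells and basophils, the members went different ways. Hdc encodes histidine decarboxylase, the enzyme that makes histamine. It was at 6.65, 7.25 and 8.74 in GMP fl/p30 and at 8.05, 7.61 and 7.92 in GMP fl/BRM2, against 9.92, 9.89 and 9.46 in GMP fl/+. Every mutant array lay below every control array, and the fl/p30 arrays were spread most. Hdc fell by 2.21 ± 0.36 in fl/p30 (4.62-fold lower, adjusted p = 0.00249) and by 1.90 ± 0.36 in fl/BRM2 (3.73-fold lower, adjusted p = 0.0122). The fl/p30 difference was -2.80 when replicate 3 of the mutant was left out, and the fl/BRM2 call ended without GMP fl/BRM2 replicate 2 (adjusted p = 0.0814). Hdc and Slc18a2, which make and store histamine, thus moved in opposite directions in the same arrays.

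Fcer1a encodes the chain of the IgE receptor that binds IgE. It was at 9.80, 8.76 and 7.48 in GMP fl/p30 and at 7.37, 7.67 and 7.70 in GMP fl/BRM2, against 7.22, 6.39 and 7.06 in GMP fl/+. No mutant array overlapped the control, but the fl/p30 arrays ranged over 2 log2 units. Its difference for fl/p30, 1.79 ± 0.51, missed the threshold (adjusted p = 0.051) and was called with the animal as a block (adjusted p = 0.00382), with an intensity trend, a filter on dim genes or array weights, or when replicate 3 of the fl/p30 GMPs or replicate 1 of their control was left out. For fl/BRM2 it was 0.69 ± 0.51 (adjusted p = 0.602).

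Ms4a2, the gene of the receptor's beta chain, which amplifies its signal, was at 7.11, 7.66 and 7.32 in GMP fl/p30 and at 8.56, 9.80 and 8.69 in GMP fl/BRM2, against 7.30, 8.28 and 8.48 in GMP fl/+. The fl/BRM2 arrays were the highest of the 15, and the fl/p30 arrays overlapped the control. Neither difference was called (-0.66 ± 0.32 for fl/p30, adjusted p = 0.278, and 0.99 ± 0.32 for fl/BRM2, adjusted p = 0.138). The fl/p30 difference was -1.01 and was called without GMP fl/+ replicate 1 and was -0.42 without replicate 3. The fl/BRM2 difference was 0.60 when replicate 2 of the mutant was left out and 0.64 when replicate 1 of the control was.

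Prss34 encodes a serine protease of basophil granules. It was at 6.23, 5.85 and 5.97 in GMP fl/p30 and at 6.12, 6.08 and 6.25 in GMP fl/BRM2, against 7.03, 7.45 and 8.10 in GMP fl/+. Both mutant groups lay near the array medians, and the control arrays were all above them. It fell by 1.51 ± 0.21 in fl/p30 (adjusted p = 0.000665) and by 1.38 ± 0.21 in fl/BRM2 (adjusted p = 0.00267), calls that held in each leave-out.

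Prg2 encodes the major basic protein of eosinophil granules. It was at 5.61, 7.88 and 9.32 in GMP fl/p30 and at 10.42, 8.13 and 8.47 in GMP fl/BRM2, against 11.02, 10.83 and 11.30 in GMP fl/+. All mutant arrays lay below the control, and each mutant group was far more spread than the control (SD 1.87 and 1.24, against 0.237). It fell by 3.45 ± 0.81 in fl/p30 (10.9-fold lower, adjusted p = 0.0218), while the fl/BRM2 difference, -2.04 ± 0.81, was not called (adjusted p = 0.24). The fl/p30 call ended when replicate 1 or 2 of the mutant or replicate 2 or 3 of the control was left out (adjusted p up to 0.0939), and over all leave-outs the difference ran from -4.31 (replicate 3 of the mutant left out) to -2.45 (replicate 1 left out).

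Prg3, the gene of a second major basic protein that starts 4563 bases beyond the end of Prg2 on chromosome 2, was at 6.33, 7.31 and 9.04 in GMP fl/p30 and at 8.59, 6.78 and 7.03 in GMP fl/BRM2, against 9.29, 8.31 and 8.86 in GMP fl/+. In each mutant group 1 array reached into the control's range: replicate 3 in fl/p30 and replicate 1 in fl/BRM2. Neither difference was called (-1.26 ± 0.55, adjusted p = 0.211, and -1.35 ± 0.55, adjusted p = 0.25). Without GMP fl/p30 replicate 3 the fl/p30 difference was -2.0 and was called, and without replicate 1 it was -0.65.

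Epx, which encodes eosinophil peroxidase, was at 6.06, 5.95 and 5.94 in GMP fl/p30 and at 6.44, 5.81 and 6.13 in GMP fl/BRM2, against 7.06, 6.30 and 6.85 in GMP fl/+. The fl/p30 mean was below the array medians and the fl/BRM2 mean within their range, and the fl/p30 arrays did not overlap the control. The differences, -0.75 ± 0.22 (adjusted p = 0.0593) and -0.61 ± 0.22 (adjusted p = 0.191), were not called. Epx was called for fl/p30 with a filter on dim genes (adjusted p = 0.0437), with array weights (adjusted p = 0.00918) and without GMP fl/+ replicate 2 (adjusted p = 0.0235). Counting arrays alone, 8 members did not overlap between GMP fl/p30 and GMP fl/+ (4 higher and 4 lower), against 17.4% of all genes (9.16% higher and 8.27% lower), and 8 did not between GMP fl/BRM2 and GMP fl/+ (5 higher and 3 lower), against 15.2% (6.74% and 8.51%).

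**Figure D2:**
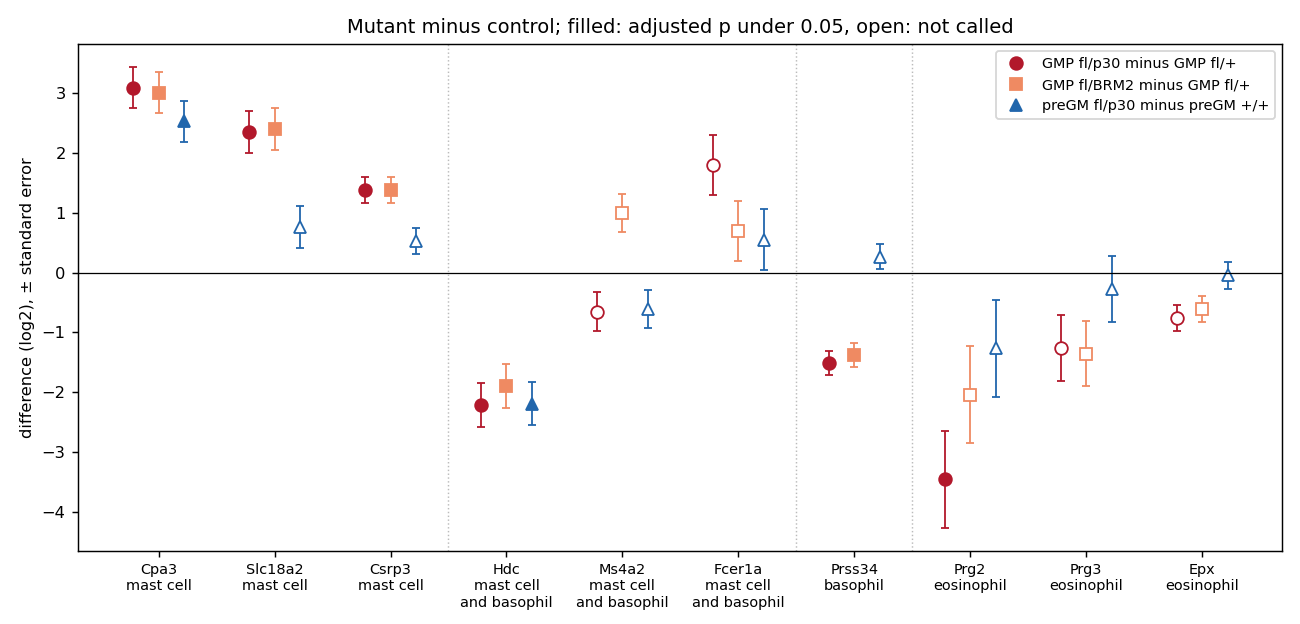
Log2 difference (y axis) ± standard error of each member, mutant minus control, for GMP fl/p30 (circles), GMP fl/BRM2 (squares) and preGM fl/p30 (triangles). Filled symbols are called and open ones are not. The mast cell genes on the left lie above 0 in each comparison, and Hdc, Prss34 and Prg2 reach -1.51 to -3.45 in GMP fl/p30.

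The mutant GMPs were also set against each other. No member was called between GMP fl/p30 and GMP fl/BRM2, where 0.00502% of all genes were called. For the mast cell genes the fl/p30 minus fl/BRM2 difference was 0.086 for Cpa3 (95% interval -0.65 to 0.82), -0.053 for Slc18a2 (-0.81 to 0.70) and -0.0039 for Csrp3 (-0.46 to 0.45). These intervals still allow differences of nearly 1 log2 unit for Cpa3 and Slc18a2. The smallest unadjusted p-values were those of the IgE receptor chains. Ms4a2 was lower in GMP fl/p30 by 1.65 (95% interval -2.34 to -0.96, adjusted p = 0.213), with all 3 fl/p30 arrays below all 3 fl/BRM2 arrays, where 8.33% of all genes did not overlap (4.67% higher and 3.66% lower). It was called with array weights (-1.38, adjusted p = 0.0093). Fcer1a was 1.10 higher (0.02 to 2.19, adjusted p = 1), with overlap. Of the eosinophil genes, Prg2 had a difference of -1.41 with an interval of -3.14 to 0.33, and Prg3 one of 0.094 with an interval of -1.08 to 1.26. The Prg2 difference was -0.41 when replicate 1 of the fl/p30 GMPs was left out, -2.27 when replicate 3 was, and -0.70 when replicate 1 of the fl/BRM2 GMPs was.

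The arrays of GMP fl/p30 differed among themselves. Replicate 1 had the highest Cpa3, Slc18a2, Csrp3 and Fcer1a of its group and the lowest Hdc, Prg2 and Prg3, and replicate 3 had the reverse. The other 3 members did not follow: Prss34 and Epx were also highest in replicate 1, and Ms4a2 in replicate 2. Deviations from a gene's 15-array mean, averaged over genes, put this on 1 scale. The 3 mast cell genes stood at 1.33, 0.99 and 0.48 in replicates 1, 2 and 3, and the basophil and eosinophil genes (Prss34, Prg2, Prg3 and Epx) at -0.89, -0.20 and 0.62. That spread came from Prg2 (-2.68, -0.42 and 1.03) and Prg3 (-0.90, 0.078 and 1.81), while Prss34 (-0.033, -0.41 and -0.29) and Epx (0.048, -0.061 and -0.073) were highest in replicate 1. In GMP fl/BRM2 the mast cell genes stood at 0.61, 1.18 and 0.98 and the basophil and eosinophil genes at 0.94, -0.25 and 0.02. In GMP fl/+ they stood at -1.47, -1.65 and -0.89, with the basophil and eosinophil genes at 1.65, 1.27 and 1.83. The mast cell genes thus exceeded the others by 2.22, 1.19 and -0.14 in GMP fl/p30 and by -0.34, 1.43 and 0.96 in GMP fl/BRM2, against -3.12, -2.93 and -2.72 in GMP fl/+.

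**Figure D3:**
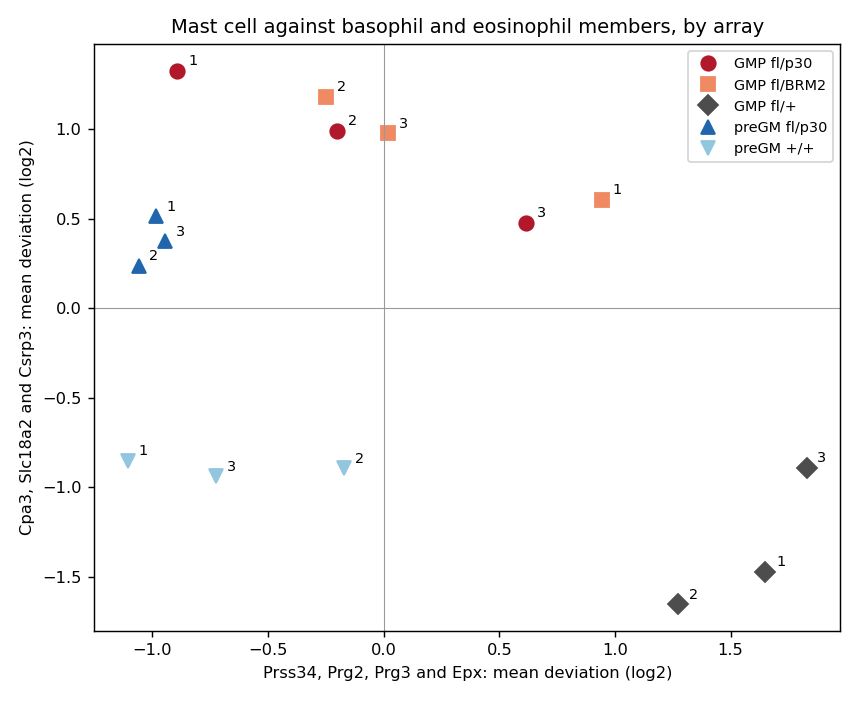
Mean deviation from the gene's mean over the 15 arrays (log2) of Cpa3, Slc18a2 and Csrp3 (y axis) against that of Prss34, Prg2, Prg3 and Epx (x axis), 1 point an array, numbered by replicate. GMP fl/+ lies at the lower right, preGM +/+ at the lower left and preGM fl/p30 at the upper left, and the mutant GMPs run across the top of the plot.

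Markers of other cells moved with these values. The 4 neutrophil primary granule genes (4 of 4 above the array medians in each GMP group) had a mean log2 level of 9.48, 10.77 and 11.77 in GMP fl/p30 replicates 1, 2 and 3 and of 11.61, 9.94 and 11.12 in GMP fl/BRM2, against 12.15, 11.73 and 11.69 in GMP fl/+. The 8 secondary granule genes stood at 5.85, 6.17 and 7.55 in GMP fl/p30 and at 7.63, 6.26 and 6.75 in GMP fl/BRM2, against 8.53, 7.99 and 7.70 in GMP fl/+. The arrays with the highest Prg2 and Prg3 of each mutant group were those with the highest levels of both lists. The 5 erythroid genes measured ranged from 7.94 to 8.55 in GMP fl/p30 and from 7.78 to 8.78 in GMP fl/BRM2, against 6.59 to 7.05 in GMP fl/+, with 3 of 5 called higher for each mutant. Of 7 megakaryocyte genes 3 were called higher for each mutant. Of 7 T and NK genes 2 were called higher in GMP fl/p30 and 0 in GMP fl/BRM2, with 0 called lower in either. Their mean log2 level was dim, at 5.35 to 5.51 in GMP fl/p30 and 4.96 to 5.10 in GMP fl/BRM2, against 4.94 to 5.10 in GMP fl/+. The part of these cells in the members' differences was not tested.

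Further genes of the same cells were read from lists. Of 15 mast cell genes measured, 6 rose and 0 fell in GMP fl/p30, and likewise 6 and 0 in GMP fl/BRM2, with a median difference of 0.44 and 0.23 against -0.04 and -0.02 over all genes. Beside the 3 members these were Cma1, a mast cell chymase gene (1.52 and 1.57), Mitf, a factor mast cells need (0.84 and 0.67), and Hpgds, the prostaglandin D synthase gene of mast cells (0.92 and 0.73). The genes of mature mast cells were dim: Mcpt1, Mcpt2, Mcpt4, Tpsab1, Mrgprb1 and Mrgprb2, for proteases and receptors of mature cells, averaged below the array medians in all 5 groups. Cma1 itself averaged 6.5 in GMP fl/p30 and 6.54 in GMP fl/BRM2, against 4.97 in GMP fl/+.

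Of 8 basophil genes, 1 rose and 2 fell in GMP fl/p30, and 0 rose and 1 fell in GMP fl/BRM2. The member Prss34 is counted among those that fell with each mutant. The median difference was 0.20 and 0.14. Mcpt8, the gene of a basophil granule protease, was at 8.83, 8.66 and 9.45 in GMP fl/p30 and at 10.26, 9.98 and 9.76 in GMP fl/BRM2, against 10.18, 9.94 and 10.51 in GMP fl/+. It fell by 1.23 ± 0.20 in fl/p30 (adjusted p = 0.00202), and its fl/BRM2 arrays overlapped the control (-0.21 ± 0.20, adjusted p = 0.713). The mutants were not called apart (-1.02 ± 0.20, adjusted p = 0.199). Il18r1, a cytokine receptor gene of basophils and other cells, rose by 1.5 in fl/p30.

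Of 9 eosinophil genes, 2 rose and 2 fell in GMP fl/p30, and 1 rose and 1 fell in GMP fl/BRM2. The member Prg2 is counted among those that fell in GMP fl/p30. The median difference was -0.26 and -0.21. Ear6, an eosinophil ribonuclease gene, fell by 1.98 ± 0.34 in fl/p30 and by 1.62 ± 0.34 in fl/BRM2. The Ear6 means of both mutants did not exceed the highest array median, so the size of its fall is limited by the background. Ccr3, the eotaxin receptor gene, rose by 0.85 ± 0.19 and 0.75 ± 0.19, from a control mean below the array medians. Its mutant means did not exceed the highest array median either, so the rise lay near the background. Siglecf, a surface lectin gene of eosinophils, was at 8.76, 8.97 and 9.27 in GMP fl/p30, against 7.94, 7.94 and 8.43 in GMP fl/+, and rose by 0.90 ± 0.16 (adjusted p = 0.00488). In GMP fl/BRM2 its difference was 0.58 ± 0.16 and was not called (adjusted p = 0.0814).

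Of 17 genes of the IgE receptor, its signalling and the Ms4a family, 7 rose and 0 fell in GMP fl/p30 and 3 rose and 0 fell in GMP fl/BRM2. The median difference was 0.57 and 0.27. Both include Ms4a1, Ms4a3, Ms4a4b and Ms4a6b, relatives of Ms4a2 by name, which were not called for fl/p30. The adaptor gene Lat rose by 2.04 and 1.86, its relative Lat2 by 1.59 and 1.32, and the phospholipase gene Plcg1 by 1.38 and 1.07. The kinase gene Fyn (1.35) and Fcer1g, the receptor's gamma chain (1.14), rose in fl/p30. Genes of the T and NK list were also called higher in GMP fl/p30 (2 of 7) and not in GMP fl/BRM2. The part of such cells in these differences was not tested. Of 10 histamine and granule content genes, 4 rose and 1 fell with either mutant, and the one that fell was Hdc. Those that rose were the members Cpa3 and Slc18a2, then Hpgds, already counted with the mast cell genes, and Alox5. Alox5, which starts leukotriene synthesis, rose by 3.01 ± 0.35 and 2.68 ± 0.35.

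Of 16 factors of these lineages, 8 rose and 1 fell in GMP fl/p30, and 5 rose and 1 fell in GMP fl/BRM2. The 8 include Cebpa, the targeted gene, whose probe positions are not known here. Mitf, already counted with the mast cell genes, is among those that rose with each mutant. Gata2 was at 9.76, 9.38 and 8.70 in GMP fl/p30 and at 8.84, 9.42 and 9.10 in GMP fl/BRM2, against 6.94, 7.49 and 7.62 in GMP fl/+. It rose by 1.93 ± 0.23 and 1.77 ± 0.23. Gata1 rose by 1.05 and 1.20 and Id2, an inhibitor of bHLH factors, by 2.73 and 1.72, while Irf8, a factor of monocytes and basophils, fell by 1.72 in fl/p30 and by 1.44 in fl/BRM2. Of 9 cytokine receptors, 2 rose and 1 fell with either mutant. Csf2rb2, the beta chain gene of the mouse IL-3 receptor, rose by 2.31 and 2.60 and the common beta chain gene Csf2rb by 1.06 and 1.15, and Csf2ra, the GM-CSF receptor alpha chain gene, fell by 1.11 in fl/p30 and by 1.21 in fl/BRM2.

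In preGM fl/p30 Cpa3 rose and Hdc fell, and no other member was called. The 2 called of 10 (1 higher, 1 lower) stand against 1.68% of all genes (0.647% higher and 1.03% lower). Cpa3 was at 12.09, 11.57 and 11.77 in preGM fl/p30, against 9.40, 9.17 and 9.28 in preGM +/+, without overlap, and rose by 2.53 ± 0.34 (5.77-fold, adjusted p = 0.00243). Hdc was at 5.61, 5.95 and 5.81 in preGM fl/p30, against 8.23, 7.80 and 7.90 in preGM +/+, also without overlap, and fell by 2.19 ± 0.36 (adjusted p = 0.00755) to below the array medians. Both calls held in each leave-out. Markers of other cells moved in the same comparison. The primary granule genes had a mean log2 level of 8.87 to 9.30 in preGM fl/p30, against 10.57 to 10.89 in preGM +/+ (0 of 4 called). The secondary granule genes stood at 5.71 to 5.99 in preGM fl/p30, against 7.35 to 8.58 in preGM +/+ (3 of 8 called lower), and the monocyte genes at 6.10 to 6.34, against 7.25 to 7.40 (2 of 7 called lower). The B lymphoid genes stood at 6.92 to 7.31 in preGM fl/p30 and were uneven in preGM +/+, at 6.57 to 8.65 (0 of 6 called). Their part in the Cpa3 and Hdc differences was not tested.

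Slc18a2 was at 9.21, 9.49 and 9.39 in preGM fl/p30, against 8.54, 8.67 and 8.61 in preGM +/+, and Csrp3 at 8.30, 7.70 and 8.02, against 7.56, 7.54 and 7.35. Neither overlapped, and neither difference was called (0.76 ± 0.35, adjusted p = 0.354, and 0.53 ± 0.21, adjusted p = 0.289). Slc18a2 was called when only the preGM arrays were fitted (adjusted p = 0.00442). In all 7 members did not overlap (4 higher and 3 lower), against 25.1% of all genes (12.4% higher and 12.8% lower).

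Prg2 was at 6.25, 6.13 and 6.42 in preGM fl/p30, against 6.25, 8.95 and 7.40 in preGM +/+, whose replicate 2 stood high. That array also had the highest secondary granule list of its group (8.58, against 7.35 and 7.35 in the other preGM +/+ arrays), and their part in it was not tested. The Prg2 difference of -1.26 ± 0.81 was not called (adjusted p = 0.515) and was -0.56 without that array and -1.90 without replicate 1. The other 5 members had differences from -0.61 (Ms4a2) to 0.55 (Fcer1a), and Prss34, Prg3 and Epx averaged near or below the array medians in both preGM groups.

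Whether the fl/p30 effect differed between the stages was tested as an interaction, for which 0.00502% of genes were called and no member was. For Prss34 the GMP difference was 1.77 ± 0.29 lower than the preGM difference (adjusted p = 0.072), and with the animal as a block it was called (adjusted p = 0.0439). It was also called when replicate 3 of the fl/p30 GMPs or replicate 1 of GMP fl/+ was left out. Among the groups of this test, only GMP fl/+ averaged above the array medians for Prss34 (7.53). The preGM control was already below them (5.675), so a fall with p30 could hardly be seen at that stage. For Prss34 the interaction therefore cannot tell a stage-dependent effect from this floor. Slc18a2 had an interaction of 1.59 ± 0.50 (adjusted p = 0.228), Csrp3 one of 0.85 ± 0.30 (adjusted p = 0.277) and Prg2 one of -2.18 ± 1.14 (adjusted p = 0.419). Those of Hdc (-0.02 ± 0.51) and Cpa3 (0.56 ± 0.49) were closer to 0, with 95% intervals of -1.12 to 1.08 and -0.48 to 1.60. In preGM fl/p30 the mean of Hdc (5.79) was below the array medians and that of Prg2 (6.27) was near them. The floor may thus have cut short their preGM falls, so their interactions cannot show whether the effect was equal at both stages. The controls of the stages differ in genotype, so stage and the floxed allele cannot be told apart here.

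Within the fl/p30 animals, GMPs and preGMs were compared directly. Csrp3 and Hdc rose and no member fell, 2 of 10 called against 0.642% of all genes (0.356% higher and 0.286% lower). Csrp3 was higher in the GMPs by 1.28, 1.67 and 0.69 in replicates 1, 2 and 3 (difference 1.21 ± 0.21, 2.32-fold, adjusted p = 0.0175). Hdc was higher by 1.04, 1.31 and 2.93 (1.76 ± 0.36, adjusted p = 0.0431), from a preGM mean below the array medians. The 2 calls were not stable: each ended in 4 of 6 leave-outs. Csrp3 was lost when replicate 1 or 2 of the GMPs or replicate 2 or 3 of the preGMs was left out (highest adjusted p = 0.0824). Hdc was lost when replicate 2 of the GMPs or any 1 of the preGM arrays was left out (highest adjusted p = 0.156), and its difference was 1.16 without replicate 3 of the GMPs.

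Fcer1a was higher in the GMPs of all 3 animals, by 1.98, 1.88 and 1.28. Its difference of 1.71 ± 0.51 was not called (adjusted p = 0.156) and was called with the animal as a block (adjusted p = 0.0203). Cpa3 was slightly lower in the GMPs of all 3 (by 0.18, 0.08 and 0.57), and its difference of -0.28 ± 0.34 was not called. Prg2 changed sign between animals, at -0.65, 1.75 and 2.90, and Prg3 was higher by 0.50, 1.20 and 2.93, with neither called (adjusted p = 0.548 and 0.237). Replicate 3 had the largest step for Hdc, Prg2 and Prg3 and the smallest for Slc18a2, Csrp3 and Fcer1a. In all 6 members were higher in every GMP array than in every preGM array, against 17.2% of genes that did not overlap in either direction (9.44% higher and 7.72% lower).

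**Figure D4:**
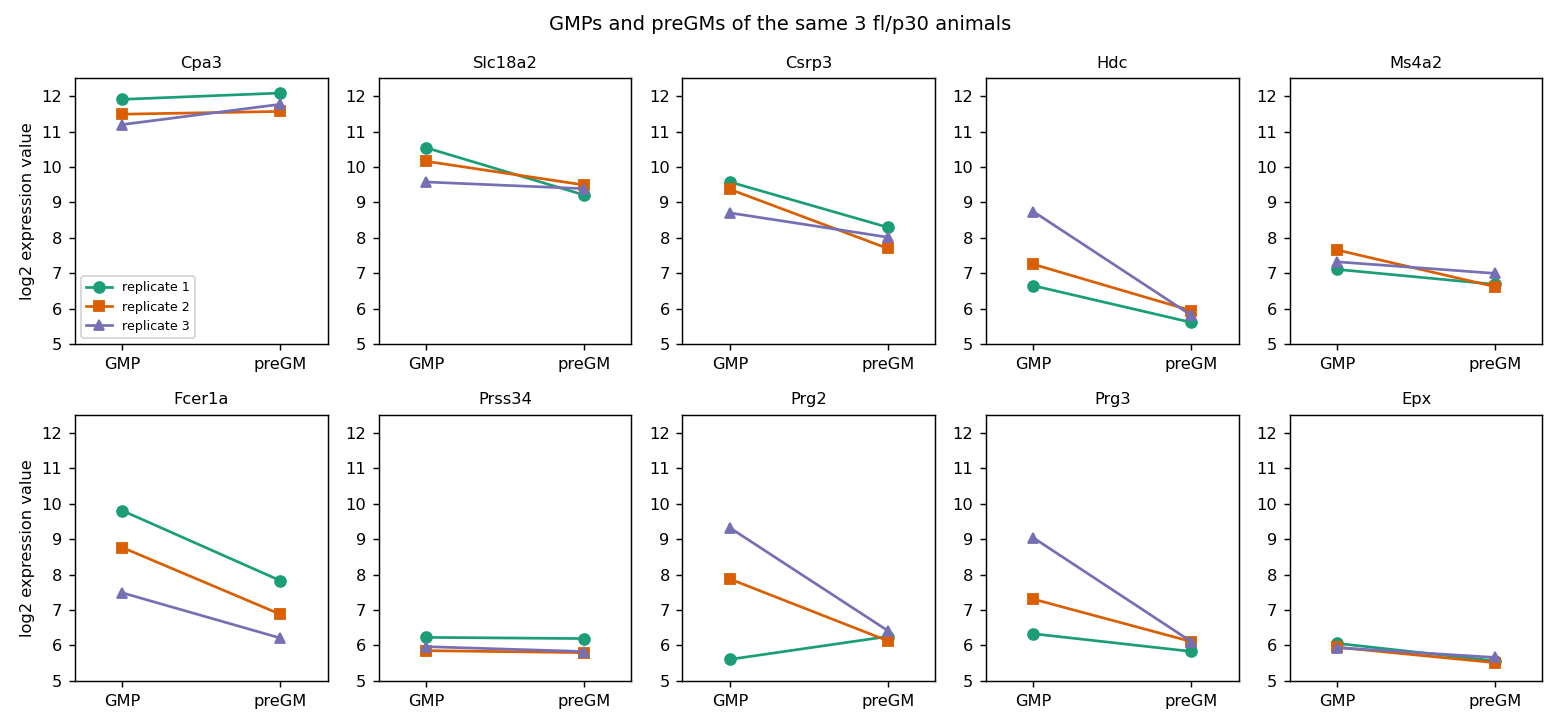
Log2 expression value (y axis) of each member in GMPs (left) and preGMs (right) of the 3 fl/p30 animals, joined by animal and marked by replicate number. Fcer1a and Csrp3 are higher in the GMPs of each animal, Cpa3 is near level, and Hdc, Prg2 and Prg3 fan out in the GMPs.

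In the control cells the 1 basophil member, Prss34, and the 3 eosinophil members were higher at the later stage. Between GMP fl/+ and preGM +/+, 5 of 10 members rose (Hdc, Prss34, Prg2, Prg3 and Epx) and 0 fell, against 10.2% of all genes (4.19% higher and 6.02% lower), with the genotype difference noted above. Prg2 rose by 3.52 ± 0.81 (11.5-fold, adjusted p = 0.0172), Prg3 by 2.53 ± 0.55 (adjusted p = 0.0129), Prss34 by 1.85 ± 0.21 (adjusted p = 0.00022), Hdc by 1.78 ± 0.36 (3.43-fold, adjusted p = 0.00991) and Epx by 1.11 ± 0.22 (adjusted p = 0.00835). All 5 were higher in each GMP fl/+ array than in each preGM +/+ array, among 6 members that did not overlap upwards and 2 downwards, against 34.0% of all genes (21.1% higher and 12.9% lower). The wider basophil list was mixed: of 8 genes, 2 were called higher, Prss34 among them, and 1 lower (Il18r1, -1.95). Its median difference was 0.10, against 0.08 over all genes. Of 9 eosinophil genes, 5 were called higher and 0 lower, the members included. The Epx call ended when only these arrays were fitted (adjusted p = 0.0682). The Prg2 difference was 2.88 without preGM +/+ replicate 1 and 4.23 without replicate 2, and its call ended without replicate 1 or 3 (adjusted p up to 0.0813) and the Prg3 call without preGM +/+ replicate 1 (adjusted p = 0.051). Cpa3 and Slc18a2 were lower in each GMP fl/+ array than in each preGM +/+ array, but -0.84 ± 0.34 and -0.86 ± 0.35 were not called (adjusted p = 0.118 each). Of the other cells' markers, 3 of 5 erythroid genes were called lower in GMP fl/+ (mean log2 level 6.59 to 7.05, against 7.99 to 8.14 in preGM +/+). The primary granule genes stood at 11.69 to 12.15 in GMP fl/+, against 10.57 to 10.89 in preGM +/+ (0 of 4 called), and 1 of 8 secondary granule genes was called lower. Their part in the members' steps was not tested. The Cpa3 step was -0.29 without GMP fl/+ replicate 2 and was called without replicate 1 (-1.18), and the Slc18a2 step was -0.34 without GMP fl/+ replicate 1 and was called without replicate 3 (-1.23).

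The order of the 5 group means differed by lineage. Cpa3 was highest in preGM fl/p30, then GMP fl/p30 and GMP fl/BRM2, with overlapping arrays, then preGM +/+ and GMP fl/+, each apart from its neighbour. Slc18a2 and Csrp3 were highest in the mutant GMPs, whose arrays overlapped, then in preGM fl/p30. Prss34, Prg2, Prg3, Epx and Hdc were all highest in GMP fl/+, and Prg2, Prg3, Epx and Hdc were lowest in preGM fl/p30. Below GMP fl/+, most neighbours in the order of Prss34, Prg2 and Epx overlapped. Ms4a2 was highest in GMP fl/BRM2, apart from its neighbour GMP fl/+, and Fcer1a, highest in GMP fl/p30, overlapped between all neighbours.

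Genes most like the members were ranked by Pearson correlation over the 15 arrays among 10800 genes with at least 1 group mean above the highest array median. The arrays share their group structure, so these values are a description. Most like the mean of Cpa3, Slc18a2 and Csrp3 were Plxdc2 (r = 0.98), Prkca (0.97), Gna14 (0.97), St8sia6 (0.97) and Ikzf2 (0.96). Plxdc2 averaged 8.93 in GMP fl/p30 and 8.92 in GMP fl/BRM2, against 5.65 in GMP fl/+. Most like the mean of Prg2, Prg3 and Epx were Chd7, Abca13, Tmem39a and Gsr (0.96 each) and Edem1 (0.95). Chd7 averaged 9.37 in GMP fl/p30 and 9.83 in GMP fl/BRM2, against 11.22 in GMP fl/+, and Gsr, the glutathione reductase gene, averaged 9.07 and 9.08, against 10.32.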

How the data were processed

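The 15 samples were measured on Affymetrix Mouse Gene 1.0 ST arrays. Per the labels' protocols, 20 ng of total RNA was amplified as cDNA and biotin-labelled. The authors deposited log2 values for 34760 probe sets, made with affy and RMA, per the submitters' processing notes. RMA subtracts background, gives all arrays the same quantiles and combines the probes of a set. Versions were not given in the sources used here. RMA pulls dim probe sets together, which can shrink their differences. Arrays have no read depth, and 3 per group limit the precision.

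The platform annotation gave 1 symbol to 21640 probe sets, several to 1321, and 11799 are unnamed here. By Entrez ID 21553 matched RefSeq (GRCm38.p6). The brightest probe set stood for each of 954 genes with more than 1. Groups came from the labels. Limma 3.58.1 (R 4.3.3) fitted 5 group means, with eBayes and no trend (residual degrees of freedom 10, prior 4.24). The method was tested on simulated data, in which a gene had the same SD in all groups and arrays were independent. That simulation does not cover the unequal spread of the groups or the shared animals. Dim probe sets were not filtered.

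The members, lists and tests were chosen with earlier results of these data known. All members are named, with up to 4 called genes of each list per GMP comparison. Mitf, Hpgds and Fcer1g were named after their values were seen. The same-numbered fl/p30 arrays come from the same animals, and their deviations from the group means correlated across genes at 0.334, 0.32 and 0.116. The animal was therefore tried as a block. Other alternatives were array weights, an intensity trend, a filter on dim genes, other probe set rules, median centring, a minimum difference, fits of the compared arrays alone and leaving out each array.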

Additional observations from a re-analysis of the deposited data

How the results depend on the processing

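The 3 arrays a group and dim probe sets (Prss34, Epx and Prg3 in preGMs) limit these results. Fitting only the arrays compared leaves fewer degrees of freedom in every comparison. It reduced the members called to 1 (Cpa3) for GMP fl/p30 against fl/+, to 3 for GMP fl/BRM2 against fl/+ and to 0 between GMP and preGM fl/p30. All genes called fell to 172, 131 and 29 in these comparisons. For preGM fl/p30 against +/+ the counts rose instead, from 2 to 3 members and from 334 to 1070 of all genes. Array weights gave 9 members for GMP fl/p30 against fl/+ (adding Fcer1a, Prg3 and Epx) and 6 for GMP fl/BRM2 against fl/+ (adding Prg3), 1 between the mutant GMPs (Ms4a2), 5 between GMP and preGM fl/p30 and 3 for the interaction. For GMP fl/p30 against fl/+ a filter on dim genes gave 8 (adding Fcer1a and Epx) and an intensity trend 7 (adding Fcer1a). Median centring gave 1 member between GMP and preGM fl/p30 and 1 for the interaction, and testing all probe sets gave 0 between GMP and preGM fl/p30 and ended the Prg2 call for GMP fl/p30 against fl/+ (adjusted p = 0.0614). The animal as a replicate block gave 1 member for the interaction (Prss34) and 3 between GMP and preGM fl/p30, and beside the Fcer1a calls in the report it changed no other member's call. A block by the label's replicate number, which outside the fl/p30 animals pairs nothing, gave 1 between GMP and preGM fl/p30. The causes were not tested.

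Leaving out each array in turn gave 5 to 8 members called for GMP fl/p30 against fl/+, 4 to 5 for GMP fl/BRM2 against fl/+, 0 between the mutant GMPs, 2 for preGM fl/p30 against +/+, 0 to 3 between GMP and preGM fl/p30, 3 to 7 for GMP fl/+ against preGM +/+ and 0 to 1 for the interaction. No called member changed sign in any setting run. Uncalled differences near 0 did. Between the mutant GMPs, array weights gave Cpa3 -0.025 and Csrp3 0.084, and median centring gave Csrp3 0.046. Leave-outs ran from -0.10 to 0.25 for Cpa3, -0.28 to 0.21 for Slc18a2, -0.18 to 0.25 for Csrp3, -0.91 to 0.14 for Hdc, -0.65 to 0.71 for Prg3 and -0.30 to 0.010 for Epx. For preGM fl/p30 against +/+, Epx was 0.019 with array weights and -0.25 to 0.19 over leave-outs. Between GMP and preGM fl/p30, Prss34 ran from -0.030 to 0.20. For the interaction, median centring gave Hdc 0.10 and Ms4a2 0.080, and leave-outs ran from -0.62 to 0.43 and from -0.40 to 0.18.

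All genes called for GMP fl/p30 against fl/+ numbered 1209, and 4063 with array weights, 482 with a minimum difference and 537 to 3078 over leave-outs. For GMP fl/BRM2 against fl/+ they numbered 505, and 2187 with weights, 274 with a minimum difference, 277 over all probe sets and 134 to 2218 over leave-outs, and for preGM fl/p30 against +/+ 334, and 1070 on their own arrays, 1167 with weights, 173 with a minimum difference and 101 to 223 over leave-outs. Between GMP and preGM fl/p30 they numbered 128, with 1948, 70 and 76 by weights, all probe sets and a minimum difference and 26 to 120 over leave-outs, and for GMP fl/+ against preGM +/+ 2036, with 746 on their own arrays, 4660 with weights, 450 with a minimum difference and 636 to 4686 over leave-outs. Between the mutant GMPs 1 was called (0 to 283 over all settings) and for the interaction 1 (0 to 1991).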
